A study of Mus musculus with 6 samples.

Results

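The 34 genes described here encode the core of insulin, mTOR and AMPK signalling in mouse brown fat, from the insulin receptor to the kinases and brakes of growth and energy sensing. They were chosen as a named list, with no threshold on measured values: the Ensembl identifiers of the 34 symbols were looked up among the 37620 identifiers of the deposited count tables, and all 34 were found. One of them, Igf1r, held too few counts to be tested, and 33 passed the low-count filter. RNA was sequenced from mature brown fat of C57BL/6 mice aged 6 weeks. The comparison asks which transcripts differ between 3 libraries labelled wild type and 3 libraries labelled PHOSPHO1 knockout, PHOSPHO1 being a phosphatase that releases choline and ethanolamine from their phosphates. Each library pooled 3 mice, and the cells were those that floated after the minced tissue had been treated with collagenase and spun. No treatment or cold exposure is named in the labels. Nothing in the labels describes how the knockout allele was made or in which cells it acts, and pools do not show the spread between single mice.

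Insulin binds its receptor, a tyrosine kinase, which marks the IRS proteins and so brings in PI3-kinase. PI3-kinase makes a membrane lipid to which PDK1 and Akt bind, and mTOR complex 2 completes the activation of Akt. Akt then restrains TBC1D4, GSK3, FoxO and the TSC complex, which sends glucose transporters to the cell surface and frees Rheb to switch on mTOR complex 1, the driver of protein and lipid synthesis. AMPK, which LKB1 activates when cellular energy is low, opposes mTOR complex 1. In brown fat this network governs glucose uptake and lipid making, and much of its control is by phosphorylation, which RNA counts do not show.

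Library totals ranged from 10576800 to 14239307 counts, of which the 34 genes held 0.117%. Genes of the mitochondrial genome took 39.1% to 56.5% of the counts. Levels are given as CPM, a gene's counts relative to the library size as scaled by edgeR's TMM method. Adipocyte and brown fat markers were abundant, with Fabp4 at 14940 ± 2669 CPM and Ucp1 at 2664 ± 544.9 CPM in wild type (SD, n = 3). Phospho1 itself was not lower in the libraries labelled knockout, which held 18, 15 and 17 counts of it against 13, 5 and 5 in wild type. By CPM it was higher in each of them, at 1.59, 1.23 and 1.74 against 0.733, 0.341 and 0.449. The log2 fold change of 1.53 did not pass 0.05 (edgeR adjusted p = 0.0563). The genotype is therefore given throughout as a label. Libraries also differed in how counts depended on transcript length: the slope of a gene's log2 level on log2 length, relative to the mean over libraries, was 0.31, -0.03 and 0.30 in wild-type libraries 1, 2 and 3 and -0.24, -0.09 and -0.25 in those labelled knockout. Skeletal muscle markers took 0.152% of nuclear counts in wild-type library 3 against 0.0046% to 0.0152% in the other 5. Erythroid markers took 0.0736% to 0.26% in wild type and 0.235% to 0.644% in the libraries labelled knockout. Macrophage markers took 0.0186% to 0.0377% and 0.041% to 0.0876%, stromal markers 0.147% to 0.162% and 0.186% to 0.242%, and mural markers 0.164% to 0.267% and 0.0824% to 0.156%. Brown adipocyte markers took 0.866% to 1.31% and 1.47% to 1.65%. Apart from the muscle and erythroid markers, these summed shares did not overlap between the groups, while those of adipocytes and endothelium did. Single markers of a set did not all move as its sum did (edgeR adjusted p under 0.05). Among 6 mural markers 2 rose and 0 fell, although their sum was lower. In the macrophage and brown adipocyte sets, of 6 markers each, 1 rose and 1 fell. Of the 6 stromal markers 2 rose and 0 fell. The shares were not corrected for transcript length. With the length and GC correction described below, the median log2 fold change of brown adipocyte markers went from 0.56 to 0.08. That of mural markers went from -0.03 to 0.31, of macrophage markers from -0.11 to -0.06 and of stromal markers from 0.21 to 0.66. The part of these cells in the results below was not tested.

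Transcripts of the insulin receptor, of PI3-kinase and of several kinases around Akt and mTOR were lower in the libraries labelled knockout. Those of Akt, which are shorter, were not, and the difference between Akt and these genes was not tested. Of the 33 tested genes, 8 fell, 0 rose and 25 did not pass (edgeR quasi-likelihood test, Benjamini-Hochberg adjusted p under 0.05 over all 12068 tested genes). The 8 were Insr, Pik3ca, Pik3cb, Pik3r1, Pdpk1, Gsk3b, Rictor and Prkaa2, at 0.279 to 0.545 times the wild-type level. These make 24.2% of the tested members, against 7.52% of all tested genes that fell and 1.63% that rose. The median log2 fold change of the members was -0.66, against 0.03 over all tested genes, and 27 were negative and 6 positive. In 14 members every library labelled knockout was below every wild-type library, where 19.6% of all tested genes showed this. In 1, Akt1, every such library was above, where 15.8% of all genes showed that. Among the 3118 tested genes with lengths between the members' quartiles (4355 to 8486 bases), 1167 were wholly below and 155 wholly above. All 8 genes that fell had transcripts of 6478 to 9355 bases, and long transcripts were lower across the whole genome in this comparison, so values corrected for length are given for the members. They come from the same edgeR test with offsets for length and GC content of the longest transcript. With these offsets the members' median was -0.16 and 0 passed (smallest adjusted p 0.079). At an unadjusted p under 0.05, 7 members were then lower and 0 higher, against 11.1% and 12.0% of all tested genes. DESeq2 called 12 members lower, the 8 and Irs1, Rhoq, Tbc1d4 and Rps6kb1. Without wild-type library 1, or without knockout-labelled library 3, 0 of the members passed, and 0 and 2 of all tested genes did. At an unadjusted p under 0.05, 2251 and 2672 genes passed in those fits. Without wild-type library 3 or knockout-labelled library 2, 4 members fell in each case. Pik3cb and Pdpk1 each lost their call in 5 of the 6 fits that left out a library.

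**Figure D1:**
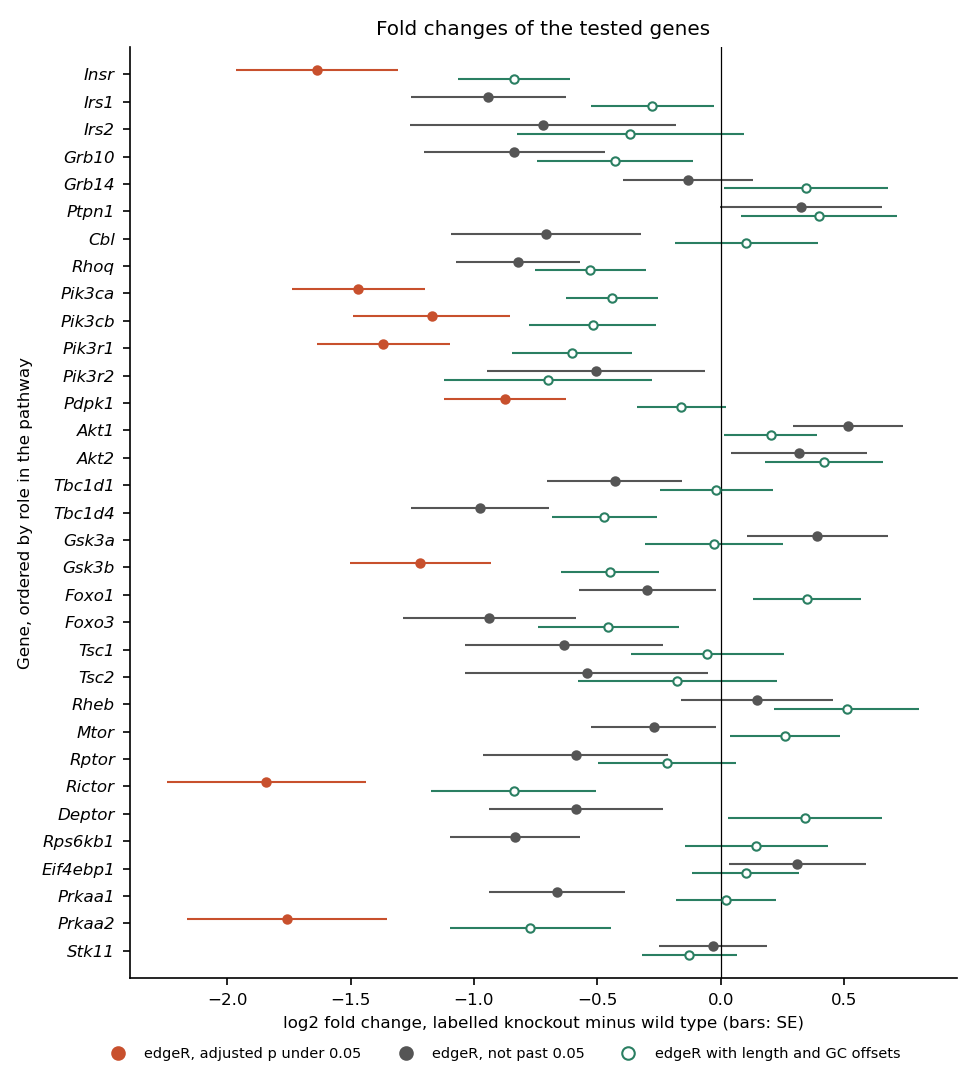
Log2 fold change (labelled knockout minus wild type) of the 33 tested genes in order of their role, with bars for the standard error. Filled points are the edgeR fit, orange where the adjusted p was under 0.05, and open green points the same fit with length and GC offsets. The 8 orange genes lie between -0.88 and -1.84 and move toward 0 with the offsets, to between -0.16 and -0.84.

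Insr encodes the insulin receptor, where the pathway starts. Its level was 40.9, 20.8 and 47.0 CPM in wild-type libraries 1, 2 and 3 and 9.20, 15.1 and 10.6 CPM in libraries 1, 2 and 3 labelled knockout. The groups did not overlap, although wild-type library 2 lay nearer to the highest library labelled knockout than to the other 2 of its own group. Insr (ENSMUSG00000005534, chromosome 8) fell by 1.64 on the log2 scale (SE 0.33, adjusted p = 0.0190). With the offsets for length and GC the log2 fold change was -0.84 (adjusted p = 0.079). In bulk libraries such as these, fewer cells of a type and less RNA per cell cannot be told apart. Igf1r, the receptor for insulin-like growth factor 1, was near the limit of detection in both groups, with 8, 4 and 17 counts in wild type and 4, 0 and 2 in the libraries labelled knockout. The insulin receptor was by far the more abundant of these receptors, at 3.87 ± 1.47 CPM per kilobase of transcript against 0.0657 ± 0.0594 for Igf1r in wild type (SD, n = 3).

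IRS1 and IRS2 are the docking proteins that carry the receptor's signal to PI3-kinase. Irs1 stood at 21.03, 13.3 and 30.1 CPM in wild type and at 10.9, 13.4 and 9.19 CPM in the libraries labelled knockout, where the second library reached the lowest wild-type library. Its log2 fold change was -0.94 (SE 0.31, adjusted p = 0.0755; DESeq2 0.0412), and -0.28 with the offsets. Exons of Irs1 overlap Gm9747 on the other strand over 30.9% of their length, but Gm9747 held only 2 counts. Irs2 was scarce, at 1.46 ± 0.962 CPM in wild type against 0.900 ± 0.326 CPM (SD, n = 3), with a log2 fold change of -0.72, or -0.37 with the offsets. Irs1 was the main IRS transcript in every library, with a log2 ratio of Irs1 to Irs2 between 3.05 and 4.69 in wild type and between 3.17 and 4.36 in the libraries labelled knockout. The 2 ranges overlapped.

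Grb10 and Grb14 encode adaptors that bind and inhibit the insulin receptor, and Ptpn1 encodes PTP1B, the phosphatase that removes its phosphates. None of the 3 passed the test. Grb10 was at 18.2, 16.5 and 42.9 CPM in wild type and 10.9, 18.4 and 14.1 CPM in the libraries labelled knockout. The high value of wild-type library 3 set the wild-type mean, and without that library the log2 fold change went from -0.84 to -0.28. With the offsets it was -0.43. Grb14 overlapped between the groups, at 24.8 ± 3.45 and 22.7 ± 6.49 CPM. Ptpn1 was at 12.1 ± 2.65 and 15.2 ± 6.85 CPM, with its highest value, 23.0 CPM, in knockout-labelled library 3. The signs of Grb14 and Ptpn1 depended on the library left out, and with the offsets their log2 fold changes were 0.35 and 0.40.

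Cbl and Rhoq belong to the branch that insulin uses beside PI3-kinase: Cbl is a ubiquitin ligase that the receptor phosphorylates, and Rhoq encodes TC10, a small GTPase linked to GLUT4 traffic. Rhoq was among the most abundant members. Its level was 187.9, 167.3 and 162.8 CPM in wild type and 120.9, 104.1 and 67.9 CPM in the libraries labelled knockout. Here the wild-type libraries lay close together and all 3 others lay below them. The log2 fold change of -0.82 (SE 0.25) missed the threshold (adjusted p = 0.0597; DESeq2 0.0243), and it was -0.53 with the offsets. Cbl was low in all libraries, at 3.30 ± 1.15 and 2.01 ± 0.453 CPM (log2 fold change -0.71, adjusted p = 0.227; 0.10 with the offsets). Of the exon sequence of Rhoq, 7.5% overlaps Pigf on the other strand, which held 515 counts, and whether the counting used strand is not known here.

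Most of PI3-kinase was lower. Class IA PI3-kinase is a dimer of a catalytic subunit, here p110alpha (Pik3ca) or p110beta (Pik3cb), and a regulatory subunit, here p85alpha (Pik3r1) or p85beta (Pik3r2), and 3 of these 4 genes fell. Pik3ca was at 44.2, 28.5 and 34.7 CPM in wild type and 12.9, 15.8 and 10.1 CPM in the libraries labelled knockout. Pik3r1 was at 72.1, 47.0 and 38.1 CPM against 20.9, 19.4 and 20.7 CPM, and Pik3cb at 15.8, 13.1 and 21.5 CPM against 7.34, 10.01 and 4.90 CPM. In all 3 genes the groups were apart, and for Pik3r1 the libraries labelled knockout were nearly equal. Pik3ca (ENSMUSG00000027665, chromosome 3) fell by 1.47 (SE 0.27, adjusted p = 0.0168) and Pik3r1 (ENSMUSG00000041417, chromosome 13) by 1.37 (SE 0.27, adjusted p = 0.0185). Pik3cb (ENSMUSG00000032462, chromosome 9) fell by 1.17 (SE 0.32, adjusted p = 0.0435). Their log2 fold changes with the offsets were -0.44, -0.60 and -0.52 (adjusted p = 0.193, 0.176 and 0.262). Pik3r2, which has a much shorter transcript, was scarce, at 2.03, 1.84 and 5.30 CPM in wild type and 1.95, 1.97 and 2.45 CPM in the libraries labelled knockout. Apart from wild-type library 3 its values were alike, and the log2 fold change was -0.51 (adjusted p = 0.444; -0.70 with the offsets). The 4 genes together gave 134.1, 90.5 and 99.5 CPM in wild type and 43.1, 47.1 and 38.2 CPM in the libraries labelled knockout.

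Pdpk1 encodes PDK1, the kinase that switches on Akt at the membrane. It was at 52.6, 40.2 and 60.3 CPM in wild type and 26.3, 32.9 and 24.2 CPM in the libraries labelled knockout. The groups were apart and Pdpk1 (ENSMUSG00000024122, chromosome 17) fell by 0.88 (SE 0.25, adjusted p = 0.0477), a call close to the threshold that RLE scaling (adjusted p = 0.0507) and limma-voom (0.0538) did not make. With the offsets its log2 fold change was -0.16 (adjusted p = 0.635). The values of Akt itself had the other sign, but its transcripts are shorter, at 2690 bases for Akt1 and 4544 for Akt2 against 7161 for Pdpk1. Akt1 was at 51.4, 40.6 and 41.2 CPM in wild type and 56.3, 69.3 and 64.7 CPM in the libraries labelled knockout, which were all higher. Its log2 fold change of 0.51 (SE 0.22) did not pass (adjusted p = 0.144) and was 0.20 with the offsets. Akt2, the isoform most tied to insulin-driven glucose uptake, was at 123.2 ± 33.6 and 153.6 ± 38.9 CPM (log2 fold change 0.32, adjusted p = 0.441; 0.42 with the offsets). Per kilobase, Akt2 was at 27.1 ± 7.38 and Akt1 at 16.5 ± 2.26 CPM in wild type, and the log2 ratio of the CPM values of Akt1 to Akt2 overlapped between groups.

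Among the proteins that Akt phosphorylates, TBC1D1 and TBC1D4 are Rab GTPase-activating proteins that hold GLUT4 vesicles back. Tbc1d4 was at 27.7, 15.7 and 18.7 CPM in wild type and 9.38, 12.2 and 10.01 CPM in the libraries labelled knockout. All 3 were lower, yet the log2 fold change of -0.97 (SE 0.28) stood at the edge of the threshold (adjusted p = 0.0502). DESeq2 gave an adjusted p of 0.0216, and with the offsets the log2 fold change was -0.47. Tbc1d1 was at 7.88 ± 1.38 and 5.85 ± 0.206 CPM, also without overlap (log2 fold change -0.43, adjusted p = 0.296; -0.018 with the offsets). The 2 transcripts have almost the same length, 6471 and 6483 bases. The log2 ratio of Tbc1d1 to Tbc1d4 was -1.58, -1.28 and -1.24 in wild type and -0.64, -1.05 and -0.83 in the libraries labelled knockout. So the balance lay toward Tbc1d4 in all 6 libraries, and less so in the 3 labelled knockout, with a difference of 0.53 and no overlap. An exact two-sided permutation test gave p = 0.1, the smallest that 3 against 3 libraries allow, and 0.3 after Benjamini-Hochberg adjustment over the 9 related pairs tested.

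GSK3 comes as 2 kinases, alpha and beta, that brake glycogen synthesis until Akt inhibits them. Gsk3b was at 34.5, 22.0 and 35.4 CPM in wild type and 11.1, 17.1 and 11.2 CPM in the libraries labelled knockout, with no overlap. It (ENSMUSG00000022812, chromosome 16) fell by 1.22 (SE 0.29, adjusted p = 0.0281), with a log2 fold change of -0.45 under the offsets (adjusted p = 0.213). Gsk3a was at 30.3, 33.0 and 51.5 CPM in wild type and 35.0, 56.1 and 59.4 CPM in the libraries labelled knockout, where the groups overlapped (log2 fold change 0.39, adjusted p = 0.361; -0.027 with the offsets). Within a library the log2 ratio of Gsk3a to Gsk3b was -0.19, 0.59 and 0.54 in wild type and 1.66, 1.71 and 2.40 in the libraries labelled knockout. The 2 sets of ratios were well apart, by 1.61 (exact permutation p = 0.1, adjusted 0.3). The transcripts differ in length, at 2260 bases for Gsk3a and 8303 for Gsk3b, and with the offsets the difference was 0.44 and the groups overlapped. Some 28.3% of Gsk3a exon sequence overlaps a gene on the other strand, 9130221H12Rik, which held 30 counts in all 6 libraries.

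The promoters of the 2 GSK3 genes are shown because the ratio of their transcripts lay apart between the groups before the length correction. Each run is a RefSeq promoter window on GRCm38.p6, 250 bases before to 50 bases after the start of transcription, read 5′ to 3′ on the gene's strand. Capitals mark the GC box, GGGCGG or its reverse CCGCCC, a motif typical of broadly used promoters. The window is at chr7:25237802-25238101 on the minus strand for Gsk3a and at chr16:38088751-38089050 on the plus strand for Gsk3b.
Gsk3a: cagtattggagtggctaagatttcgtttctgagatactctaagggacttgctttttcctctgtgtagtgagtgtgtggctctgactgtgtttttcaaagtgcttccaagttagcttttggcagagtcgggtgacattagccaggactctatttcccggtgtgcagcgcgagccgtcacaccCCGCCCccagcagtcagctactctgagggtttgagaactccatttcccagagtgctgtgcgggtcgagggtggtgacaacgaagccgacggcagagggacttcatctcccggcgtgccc
Gsk3b: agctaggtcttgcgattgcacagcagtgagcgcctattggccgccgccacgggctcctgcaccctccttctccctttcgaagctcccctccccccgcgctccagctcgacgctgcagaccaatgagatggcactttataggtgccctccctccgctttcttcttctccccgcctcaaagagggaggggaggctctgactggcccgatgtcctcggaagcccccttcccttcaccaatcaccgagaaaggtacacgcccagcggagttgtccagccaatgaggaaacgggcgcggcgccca
The Gsk3a window holds 1 GC box and the Gsk3b window 0. The letters of the GC box were in the windows of 26 of the 31 members with a RefSeq promoter, and in 38.2% of the 27025 genes of that table. They were found for 6 of the 7 genes that fell and had a window. The 27025 genes include genes not tested here, and no share over the tested genes was computed.

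FOXO1 and FOXO3 are transcription factors that Akt keeps out of the nucleus. Foxo1 was at 36.1, 30.8 and 47.9 CPM in wild type and 21.7, 33.3 and 38.4 CPM in the libraries labelled knockout, which overlapped (log2 fold change -0.30, adjusted p = 0.471). With the offsets its log2 fold change was 0.35. Foxo3 was scarcer, at 6.09, 3.00 and 5.39 CPM against 2.83, 2.46 and 2.25 CPM, with no overlap but a gap of less than 1 CPM (log2 fold change -0.94, adjusted p = 0.103; -0.46 with the offsets). A FoxO site, searched as GTAAACA and its reverse TGTTTAC, was found in the promoter windows of 2 of 31 members, Akt1 and Stk11, and of 4.05% of all genes.

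TSC1 and TSC2 form the complex that keeps Rheb inactive. None of the 3 genes passed. Tsc1 was at 3.10 ± 1.33 and 1.99 ± 0.145 CPM (log2 fold change -0.63, adjusted p = 0.295; -0.055 with the offsets). Tsc2 was the most scattered of these, at 12.6, 5.94 and 21 CPM in wild type and 3.63, 12.0 and 11.4 CPM in the libraries labelled knockout (log2 fold change -0.54, adjusted p = 0.462; -0.18 with the offsets). Part of its exons, 7.2%, overlaps Pkd1 on the other strand, which held 374 counts. Rheb, an abundant transcript, was at 99.2 ± 25.3 and 109.8 ± 45.9 CPM, with 161.5 CPM in knockout-labelled library 1 and 94.1 and 73.9 CPM in the other 2. Its sign turned when that library was left out, from 0.15 to -0.23, and with the offsets it was 0.51.

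The mTOR kinase sits in complex 1 with RAPTOR and in complex 2 with RICTOR, and DEPTOR restrains both. Rictor was at 14.4, 7.17 and 11.8 CPM in wild type and 4.95, 2.46 and 1.84 CPM in the libraries labelled knockout. No library labelled knockout reached the lowest wild-type library, and Rictor (ENSMUSG00000050310, chromosome 15) had the largest fold change of all tested members, a fall by 1.84 (SE 0.40, adjusted p = 0.0228). With the offsets it was -0.84 (adjusted p = 0.174). Rptor was at 6.15, 3.96 and 10.1 CPM against 3.18, 5.25 and 4.90 CPM (log2 fold change -0.59, adjusted p = 0.296; -0.22 with the offsets), and the groups overlapped. The difference between Rictor and Rptor was not tested. Mtor has a transcript nearly as long as that of Rictor (8564 and 9312 bases) but richer in GC (54.2% and 42.5%). It was at 19.5, 12.9 and 18.3 CPM in wild type and 15.3, 13.0 and 13.7 CPM in the libraries labelled knockout. These ranges overlapped and the log2 fold change was -0.27 (SE 0.25, adjusted p = 0.473), or 0.26 with the offsets. Deptor ranged widely, from 41.7 to 95.4 CPM in wild type and from 30.3 to 69.1 CPM in the libraries labelled knockout (log2 fold change -0.59, adjusted p = 0.27; 0.34 with the offsets). Its longest transcript has 8547 bases and a GC content of 44.3%, near that of Rictor.

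Of the targets of mTOR complex 1, Rps6kb1 encodes S6 kinase 1 and Eif4ebp1 the translation repressor 4E-BP1. Rps6kb1 was at 54.9, 36.2 and 51.9 CPM in wild type and 21.1, 25.9 and 33.2 CPM in the libraries labelled knockout. The groups did not overlap, the log2 fold change of -0.83 (SE 0.26) missed the threshold (adjusted p = 0.0649; DESeq2 0.0323), and with the offsets it was 0.14. Eif4ebp1 was the most abundant member per kilobase of the longest transcript, though not of the median one, at 51.3 ± 16.3 CPM per kilobase in wild type. Its CPM values of 99.0, 136.6 and 71.9 in wild type overlapped with 160.0, 107.0 and 114.3 in the libraries labelled knockout (log2 fold change 0.31, adjusted p = 0.453; 0.10 with the offsets). Rps6kb1 exons overlap those of Rnft1 on the other strand over 1.79% of their length, and Rnft1 held 4132 counts.

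AMPK is a trimer whose catalytic subunit is either alpha1 (Prkaa1) or alpha2 (Prkaa2), and LKB1 (Stk11) is its main activating kinase. Only Prkaa2 of the 3 passed. It was at 16.5, 10.5 and 20.9 CPM in wild type and 4.95, 6.97 and 2.14 CPM in the libraries labelled knockout. All 3 were below the lowest wild-type value, and Prkaa2 (ENSMUSG00000028518, chromosome 4) fell by 1.76 (SE 0.41, adjusted p = 0.0265). The offsets gave -0.77 (adjusted p = 0.195). Skeletal muscle also contains AMPK alpha2. Muscle markers took 0.152% of nuclear counts in wild-type library 3, the highest for Prkaa2, and 0.0056% in wild-type library 1, the next highest. Without wild-type library 3 the log2 fold change was -1.55 (adjusted p = 0.0667). The part of muscle in the Prkaa2 values was not tested. Prkaa1 was at 59.9, 58.1 and 76.7 CPM in wild type and 48.1, 48.9 and 25.8 CPM in the libraries labelled knockout. It did not overlap either, but the log2 fold change of -0.66 (SE 0.28) did not pass (adjusted p = 0.133) and was 0.02 with the offsets. Stk11 had the log2 fold change closest to 0 of all tested members, at 53.2, 46.4 and 41.0 CPM in wild type and 46.9, 46.9 and 43.8 CPM in the libraries labelled knockout (log2 fold change -0.03, SE 0.22, adjusted p = 0.934; -0.13 with the offsets).

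By CPM, the balance of the AMPK catalytic subunits lay toward alpha1 in every library and further so in the libraries labelled knockout. The log2 ratio of Prkaa1 to Prkaa2 was 1.86, 2.47 and 1.88 in wild type and 3.28, 2.81 and 3.59 in the libraries labelled knockout. The groups did not overlap, with a difference of 1.16 (exact permutation p = 0.1, adjusted 0.3). With the length and GC offsets the difference was 0.88 and the groups still did not overlap, so this pair and Tbc1d1 with Tbc1d4 were the 2 of 9 pairs apart on both scales. The other 6 pairs overlapped between the groups: Irs1 with Irs2, Grb10 with Grb14, Pik3ca with Pik3cb, Pik3r1 with Pik3r2, Akt1 with Akt2 and Foxo1 with Foxo3 (exact permutation p = 0.3 to 0.8). How often other pairs of genes are apart in these libraries was not computed. Of single tested genes, 19.6% lay wholly below and 15.8% wholly above wild type. The promoter windows of the AMPK pair are at chr15:5143611-5143910 on the plus strand for Prkaa1 and chr4:105109849-105110148 on the minus strand for Prkaa2 (GRCm38.p6). They are shown because this pair had the larger difference of the 2 that were apart on both scales, with the GC box again in capitals.
Prkaa1: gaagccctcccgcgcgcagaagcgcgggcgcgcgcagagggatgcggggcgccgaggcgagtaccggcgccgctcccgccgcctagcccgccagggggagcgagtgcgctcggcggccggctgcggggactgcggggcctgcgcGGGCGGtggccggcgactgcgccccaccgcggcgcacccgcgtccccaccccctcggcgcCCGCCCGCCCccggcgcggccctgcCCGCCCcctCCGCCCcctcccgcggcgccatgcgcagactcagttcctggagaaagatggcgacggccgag
Prkaa2: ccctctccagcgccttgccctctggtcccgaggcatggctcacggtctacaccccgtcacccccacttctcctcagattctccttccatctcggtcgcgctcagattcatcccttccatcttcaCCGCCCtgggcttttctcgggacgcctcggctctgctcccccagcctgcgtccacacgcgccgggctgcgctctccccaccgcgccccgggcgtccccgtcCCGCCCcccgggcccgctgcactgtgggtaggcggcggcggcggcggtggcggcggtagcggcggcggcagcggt
Prkaa1 has 5 GC boxes, overlapping ones included, and 52 CpG dinucleotides in its window, and Prkaa2 has 2 and 35. The median over the members' windows was 30 CpG dinucleotides and that over all RefSeq windows, those of untested genes included, 7. Both genes thus have CpG-rich starts.

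**Figure D2:**
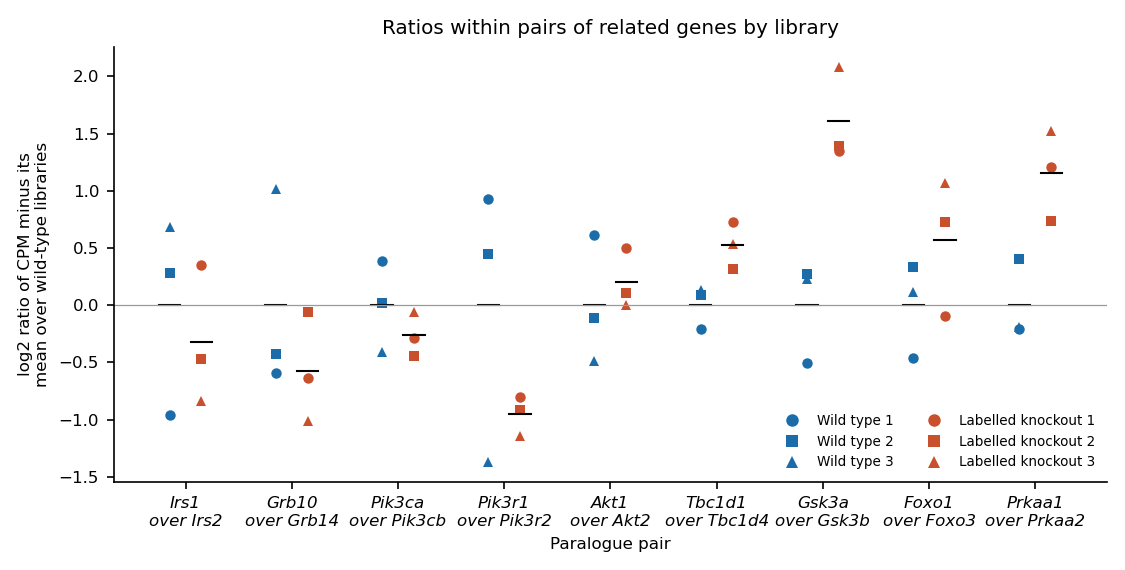
Log2 ratio of the CPM values of 2 related genes in each library, minus its mean over the wild-type libraries, for the 9 pairs that could be tested; black bars are group means. The groups are apart for Tbc1d1 over Tbc1d4 (difference 0.53), Gsk3a over Gsk3b (1.61) and Prkaa1 over Prkaa2 (1.16), and overlap in the other 6 pairs. How often other pairs of genes are apart was not computed.

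Ordered by level per kilobase of the longest transcript in wild type, the members spanned 51.3 to 0.0657 CPM per kilobase. Eif4ebp1 led, followed by Rhoq at 41.6 ± 3.23, Akt2 at 27.1 ± 7.38, Rheb at 24.5 ± 6.26, Gsk3a at 16.9 ± 5.10 and Akt1 at 16.5 ± 2.26 (SD, n = 3). Eif4ebp1 and Rhoq did not differ beyond their spread, nor did Akt2 and Rheb, nor Gsk3a and Akt1. Below these came Prkaa1 at 13.9 ± 2.21 and Stk11 at 12.8 ± 1.67, then a group from Grb14 at 8.87 ± 1.23 to Pdpk1 at 7.12 ± 1.42 whose neighbours also lay within each other's spread. Insr was in the middle of the order, at 3.87 ± 1.47. The lowest were Cbl at 0.290 ± 0.101, Irs2 at 0.231 ± 0.152 and Igf1r. The order leans on the transcript model. Per kilobase of the median transcript of each gene, the wild-type means were 264 CPM for Rhoq, 128 for Akt2 and 74.7 for Pik3r1. Eif4ebp1 followed at 73.3, Rps6kb1 at 63.2, Akt1 at 55.3 and Rheb at 45.2, so that Eif4ebp1 was no longer first.

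**Figure D3:**
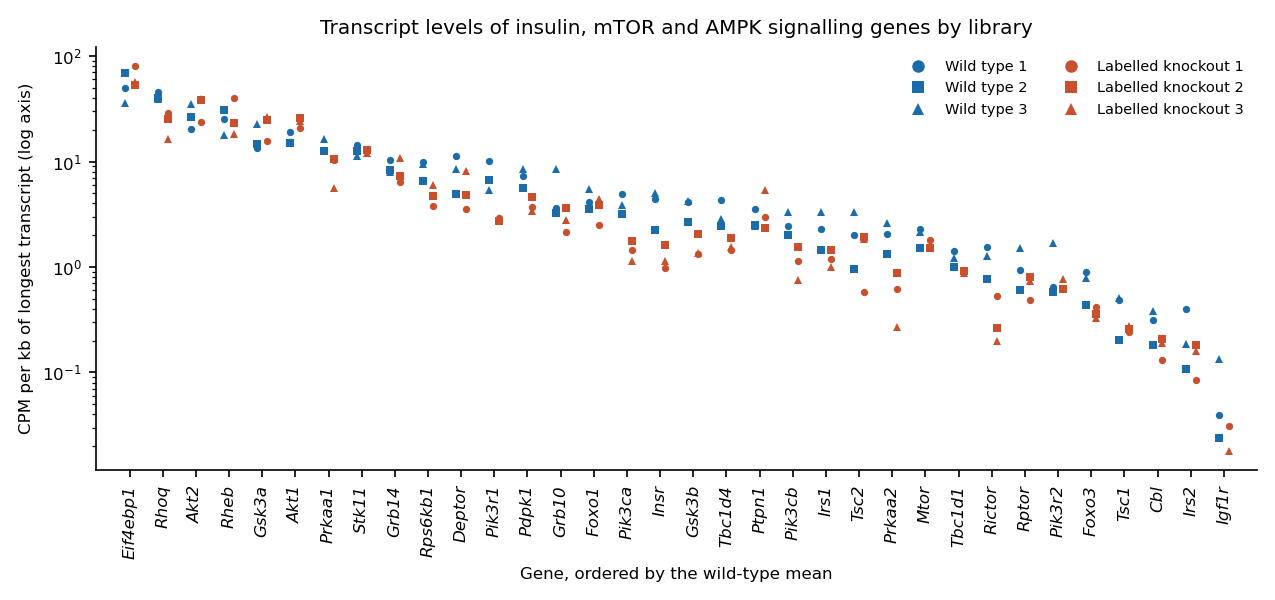
CPM per kilobase of the longest transcript (log axis) for all 34 genes in each of the 6 libraries, ordered by the wild-type mean. The order runs from Eif4ebp1 (51.3) to Igf1r (0.0657), and the 0 of Igf1r in knockout-labelled library 2 cannot be drawn on this axis.

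The libraries of a group were not alike across the members. Of the 33 tested genes, 12 had their highest value in wild-type library 1 and 14 in wild-type library 3, and 0 in wild-type library 2, which was the lowest wild-type library for 24 of them. The lowest value of all 6 was in knockout-labelled library 1 for 12 genes and in library 3 for 10. The median log2 ratio of the members to their own means was 0.38, -0.17 and 0.48 in wild type and -0.58, -0.26 and -0.29 in the libraries labelled knockout. Wild-type library 2 thus lay between the other 2 wild-type libraries and those labelled knockout, as it did for the slope on transcript length. Summed, the members stood at 1329, 1141 and 1322 CPM in wild type and 1007, 1041 and 985.3 CPM in the libraries labelled knockout. Without wild-type library 2, 12 members fell.

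Transcript length divided the members. Their median length was 6480.5 bases against 3273 for all tested genes, and 29 of 34 were longer than that. All 22 tested members of at least 5000 bases had negative log2 fold changes, as did 82.2% of the 2576 tested genes of that length. Of these members 8, or 36.4%, fell, against 21% of genes of that length, with medians of -0.86 and -0.65. Of the 11 shorter members 0 fell and 5 were negative, with a median of 0.15. The 9287 shorter genes had a median of 0.17, and 3.8% of them fell. The 6 members with positive log2 fold changes had transcripts of 1997 to 4544 bases. Across the 33 members Spearman's rho between log2 fold change and length was -0.67, and across 11863 genes -0.58, given as descriptions since genes of the same libraries are not independent. With the median transcript length per gene in place of the longest, rho was -0.34 across the members. Offsets built on that median length left 2 members past the threshold, Insr at -1.48 (adjusted p = 0.0490) and Pik3r1 at -1.26 (adjusted p = 0.0489), where 1.18% of all genes were lower. The median transcripts of Insr and Pik3r1 are short, at 1675 and 701 bases, against 9355 and 7113 bases for the longest. These offsets thus treat both as short genes. The genotype label and the length slope of a library cannot be told apart with these 6 libraries.

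**Figure D4:**
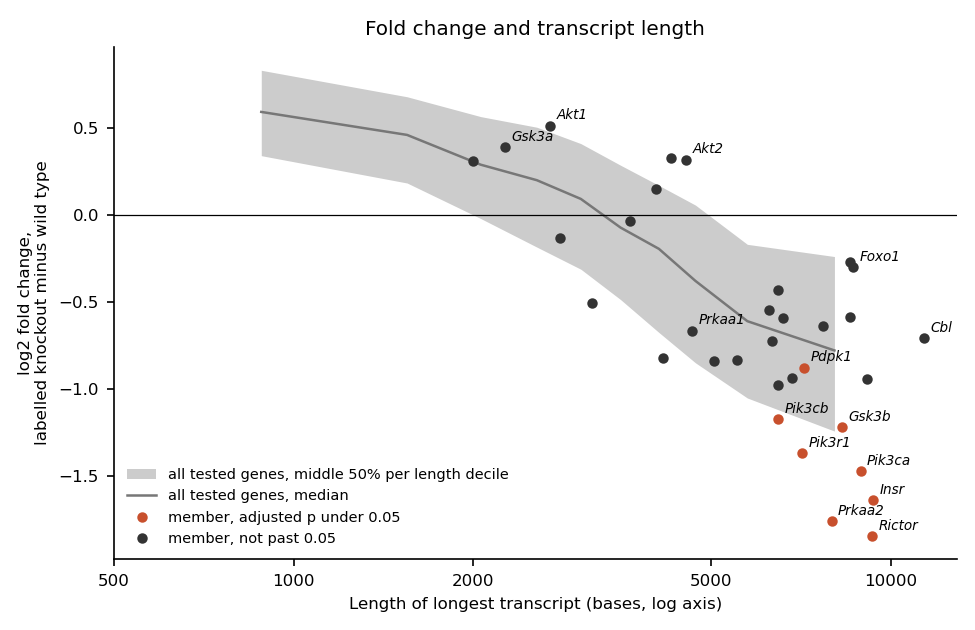
Log2 fold change (labelled knockout minus wild type) against the length of the longest transcript (bases, log axis) for the 33 tested members, orange where the adjusted p was under 0.05. The grey line and band are the median and interquartile range of all tested genes in each length decile, from a median of 0.59 in the shortest to -0.78 in the longest. The 8 orange members lie at 6478 to 9355 bases, with GC contents of 40.7% to 46.8%. Mtor and Foxo1, at 8564 and 8665 bases, have GC contents of 54.2% and 48.5% and lie near -0.30. GC content did not separate the long members. Deptor (8547 bases, 44.3% GC) did not pass either, at -0.59, and Irs1 (9144 bases, 50.3% GC) lies at -0.94.

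Of 134 further genes of these pathways, 125 were tested, and 16 fell and 1 rose (edgeR adjusted p under 0.05), with a median log2 fold change of -0.24. Over all tested genes 7.52% fell and 1.63% rose, and the list counts that follow are to be read against these shares. With the offsets for length and GC the median was -0.08 and 0 passed. At an unadjusted p under 0.05, 27 were then lower and 14 higher, against 11.1% and 12.0% of all tested genes. Without wild-type library 1 or knockout-labelled library 3, 0 of these genes fell, and without wild-type library 3 or knockout-labelled library 2 it was 4 and 7.

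Around the receptor, 3 of 15 tested adaptors and suppressors fell and 0 rose. Sos1, an exchange factor that activates Ras, went from 8.39 ± 4.31 to 2.27 ± 0.237 CPM and fell by 1.88 (SE 0.43, adjusted p = 0.0256), with wild-type library 2 at only 3.41 CPM. Its paralogue Sos2 fell by 1.36 (adjusted p = 0.0346), and Igf2r, which clears IGF2, also by 1.36 (adjusted p = 0.0300). With the offsets Sos1, Sos2 and Igf2r were at -0.79, -0.69 and -0.72. Socs1, a suppressor of receptor signalling, was at 0.968 ± 0.255 and 2.84 ± 1.60 CPM (adjusted p = 0.0596). Of 11 other phosphoinositide genes 2 fell. Pik3c2a, a class II PI3-kinase, fell by 1.89 (adjusted p = 0.0386; -0.86 with the offsets). Inpp4b and Inpp4a, which encode phosphoinositide phosphatases, did not pass (adjusted p = 0.0928 and 0.115).

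The 1 gene that rose was Sgk1, a kinase related to Akt and activated through PDK1 and mTOR complex 2. It was at 121.1, 148.9 and 134.1 CPM in wild type and 269.7, 190.9 and 264.0 CPM in the libraries labelled knockout, without overlap. The rise was 0.84 (SE 0.23, adjusted p = 0.0454), and with the offsets the log2 fold change was as large, 0.87 (adjusted p = 0.0638). The Sgk1 call was lost with total counts only, with no filter and with the replicate block, and in 5 of the 6 fits that left out a library; it held only without wild-type library 2. The other 7 tested genes of this list, the third Akt gene and phosphatases, did not pass; Ppp2cb, a catalytic subunit of phosphatase 2A, came closest (log2 fold change 0.78, adjusted p = 0.0557), then Phlpp2 (-1.16, adjusted p = 0.104) and Ppp2ca (0.37, adjusted p = 0.265).

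In the GLUT4 traffic list 3 of 14 fell and 0 rose. Ralgapb and Ralgapa2, subunits of the complex that restrains RalA, fell by 1.45 and 1.18 (adjusted p = 0.0252 and 0.0333; -0.68 and -0.35 with the offsets). Rac1, a GTPase of actin remodelling, was higher in all 3 libraries labelled knockout but did not pass (log2 fold change 0.53, adjusted p = 0.118). Of 12 tested FoxO paralogues and target genes 0 passed. The nearest were Bcl6 (-0.99, adjusted p = 0.105) and Pdk4, which encodes a kinase that inhibits pyruvate dehydrogenase, at 1224 ± 228.5 and 782.7 ± 190.7 CPM (-0.64, adjusted p = 0.125).

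On the mTOR side, 0 of 8 other subunits passed. Mlst8, a subunit of both complexes, was higher in each library labelled knockout (0.72, adjusted p = 0.0785), and Prr5l lower (-0.78, adjusted p = 0.114). Of 26 genes of amino acid and lysosomal input 2 fell, the paralogues Fnip1 and Fnip2, whose products bind folliculin and AMPK. Fnip1 was at 65.6, 42.2 and 63.1 CPM in wild type and 22.4, 18.5 and 10.9 CPM in the libraries labelled knockout. It was far lower in each of the latter and fell by 1.72 (SE 0.30, adjusted p = 0.0160; with the offsets -0.76, adjusted p = 0.0726). Fnip2 fell by 1.32 (adjusted p = 0.0431; -0.69 with the offsets). Depdc5 and Mios, parts of the GATOR complexes, did not pass (adjusted p = 0.0519 and 0.0684). Of 9 other mTORC1 targets 3 fell. Pdcd4, a translation inhibitor that S6 kinase marks for breakdown, went from 41.9 ± 6.43 to 14.2 ± 5.01 CPM and fell by 1.56 (SE 0.30, adjusted p = 0.0180). Its transcript is short, at 2408 bases, and the offsets hardly moved it (-1.50, adjusted p = 0.0621). Lpin1, a phosphatidate phosphatase, and Eif4b, an initiation factor, fell by 1.00 and 0.99 (adjusted p = 0.0389 and 0.0440; -0.59 and -0.86 with the offsets), while Eif4e, the cap-binding protein, did not pass (0.43, adjusted p = 0.218).

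Of 10 other AMPK subunits and partners of LKB1, 2 fell. Cab39 encodes MO25, the scaffold that holds LKB1 active. It was at 143.2, 112.3 and 143.0 CPM in wild type and 76.8, 76.3 and 38.5 CPM in the libraries labelled knockout, where all were lower, and it fell by 1.06 (SE 0.28, adjusted p = 0.0432; with the offsets -0.75). Map3k7, which encodes the kinase TAK1, fell by 1.16 (adjusted p = 0.0396; -0.53 with the offsets). Prkab1 and Prkag1, the beta1 and gamma1 subunits that partner the catalytic ones, had positive values that did not pass (0.83 and 0.52, adjusted p = 0.0690 and 0.192). Of 12 AMPK targets and related kinases 1 fell, Sik2, from 68.2 ± 38.5 to 23.7 ± 10.4 CPM (fall of 1.52, adjusted p = 0.0492; -1.09 with the offsets), although its groups overlapped. Acaca, which encodes acetyl-CoA carboxylase 1, was at 95.4, 17.3 and 78.4 CPM in wild type and 11.9, 10.4 and 21.4 CPM in the libraries labelled knockout. Wild-type library 2 was again with the libraries labelled knockout, and the log2 fold change of -2.13 (SE 0.57) did not pass (adjusted p = 0.0525). Crtc3 (-1.13, adjusted p = 0.0965) and Acacb (-0.56, adjusted p = 0.139) did not pass either.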

How the data were processed

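The 6 libraries, 3 per genotype label, each held RNA pooled from 3 mice; groups and replicate numbers came from the titles and genotype labels. Libraries were made with a KAPA Hyper mRNA kit, per the labels' protocols. The authors deposited raw counts per Ensembl gene, whole numbers with no normalization, 1 file per library. The submitters' processing notes name STAR 2.5.4b and mm9. Not given in the sources used here are the counting program, whether it used strand, its annotation and how it treated reads with several matches. The labels do not say whether the pools were prepared separately, so p-values measure the spread between these libraries. No pair of libraries held identical values.

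The members, the lists of 134 other pathway genes and of cell type markers, the tests and the alternatives were chosen with earlier results of these data known. All 34 members are named; of each pathway list with a call, up to 4 genes with the smallest p were named, those past the threshold first, and of each list without one, up to 2. Phospho1 is named as the targeted gene. Fabp4, Ucp1 and the genes that overlap a member on the other strand were chosen after their values were seen. The rule also names 2 genes that are not reported here.

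Symbols, transcript lengths and GC content came from GENCODE M21 (GRCm38); 98.3% of tested genes had a length. Counts were analysed with edgeR 4.0.16 in R 4.3.3: filterByExpr (minimum count 10, total 15), TMM, robust dispersions and a two-sided quasi-likelihood F test, adjusted by Benjamini-Hochberg over all 12068 genes with a threshold of 0.05. Standard errors were derived from the F statistic. For the offsets, each library's log2 ratio to the gene mean (prior count 2) was fitted on log2 length and GC by smooths (mgcv 1.9.3, basis size 6). Ratios within 9 pairs of related genes were compared by exact two-sided permutation tests. Alternatives were RLE scaling, total counts only, 2 other filters, DESeq2 1.42.0, limma-voom (limma 3.58.1), a block for the replicate number, 1 library left out at a time, mitochondrial genome genes removed, and a threshold of 0.01; edgeR's legacy quasi-likelihood method was added after seeing the data. The scripts were tested on simulated data. Promoter windows of 300 bases came from RefSeq (GRCm38.p6) for 31 of 34 members, matched by symbol.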

Additional observations from a re-analysis of the deposited data

How the results depend on the processing

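With 1 library left out, the number of members that fell ranged from 0 (without wild-type library 1 or knockout-labelled library 3) to 12 (without wild-type library 2; also with DESeq2), and of all genes from 0 to 1383 lower and 0 to 688 higher. For the other pathway genes the range was 0 to 22 lower and 0 to 4 higher. With the length and GC offsets 0 members, 0 pathway genes in either direction and 0 genes in all were lower, and 1 gene was higher (2787 at an unadjusted p under 0.05). With median-length offsets the counts were 2 members, 3 lower and 0 higher pathway genes, and 142 lower and 81 higher genes. The block with offsets gave 0 of each, and a threshold of 0.01 gave 0 lower members, 0 pathway genes either way, and 0 lower and 1 higher genes. Total counts only gave 1389 lower and 29 higher genes and 0 higher pathway genes, and moved the median of all genes from 0.03 to -0.23 and the share of calls that were higher from 17.8% to 2.05%. DESeq2 gave 493 higher genes and 4 higher pathway genes, and no filter gave 0 of the latter. The cause was not tested.

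The labels do not say whether same-numbered libraries were prepared together. Their deviations from the group means correlated at 0.145, -0.534 and 0.0318, and those of different-numbered libraries at -0.424 to 0.545. With 3 libraries per group, these values cannot settle whether the numbers pair the libraries. With the replicate block 7 members, 17 pathway genes and 976 genes were lower, and 0 and 223 higher.

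Log2 fold changes that turned with the offsets were those of Grb14 (0.35), Cbl (0.10), Gsk3a (-0.027), Foxo1 (0.35), Mtor (0.26), Deptor (0.34), Rps6kb1 (0.14) and Prkaa1 (0.022). With the block added these were 0.24, 0.11, -0.024, 0.35, 0.24, 0.26, 0.061 and 0.0218. With median-length offsets Grb14 (0.36), Ptpn1 (-0.083), Akt2 (-0.0054), Foxo1 (0.38) and Prkaa1 (0.32) turned, and with total counts only Ptpn1 (-6.3e-05) and Rheb (-0.085). With a library left out, values ranged from -0.40 to 0.0198 for Grb14, -0.12 to 0.54 for Ptpn1, -0.76 to 0.10 for Pik3r2, -0.23 to 0.35 for Rheb and -0.15 to 0.064 for Stk11. Ratio differences that turned with the offsets were Pik3ca to Pik3cb (0.10), Pik3r1 to Pik3r2 (0.00016) and Akt1 to Akt2 (-0.23). With a library left out, Irs1 to Irs2 ranged from -0.80 to 0.021 and Akt1 to Akt2 from -0.0499 to 0.50. None of these had passed a test. All 33 members kept their direction and their side of the threshold without mitochondrial genome genes, and 32 did with RLE scaling, limma-voom, the legacy method, the block or the filter of 1 CPM. Depth limits Igf1r, Irs2 and Pik3r2, which held the fewest counts.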
